A study of Mus musculus with 8 samples.

Results

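The glucocorticoid response was followed in 8 RNA-seq libraries of natural killer (NK) cells through 6 genes: *Nr3c1*, which encodes the glucocorticoid receptor, and *Tsc22d3*, *Fkbp5*, *Sgk1*, *Ddit4* and *Klf9*, which glucocorticoids raise in lymphocytes and many other cells. The rule took the rows of these 6 symbols. All 6 were among the 48321 symbols listed in the count files, and all 6 passed the filter on low counts that left 12595 genes for testing. NK cells had been sorted as CD45+ TCRb- NK1.1+ cells from lung and spleen of Wt mice and of KO mice, both on a background labelled C57/Bl6, which gave 4 groups of 2 libraries. KO stands for *Ccl5ΔPE/ΔPE*, a germline deletion by CRISPR/Cas9 of the proximal enhancer of the chemokine gene *Ccl5* (*Ccl5-PE*) on both alleles, present in every cell of the animal. The cells were sequenced fresh, with no glucocorticoid or other treatment given in the labels. Age and sex were not labelled for each library, and the study's methods give an age range in months and mixed sexes for its mice as a whole. All 8 libraries held *Xist* reads and none held reads of the Y-linked *Ddx3y*. Whether different mice gave the 2 libraries of a group is not stated, so n is a number of libraries, and p-values measure the spread between libraries, which may be technical.

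Glucocorticoids are steroid hormones of the adrenal cortex that enter cells freely. Without hormone, the receptor is held in the cytosol by HSP90 and its co-chaperones, and with hormone it moves to the nucleus and binds DNA as a dimer at palindromic elements near genes such as *Fkbp5* and *Tsc22d3*. In NK cells and other lymphocytes, the hormone is known for lowering cytokine production and for shaping trafficking over the day.

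The 5 induced genes were examined for the palindrome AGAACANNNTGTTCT, which reads the same on both strands, and for its 6-base arm AGAACA on either strand, in RefSeq windows from 250 bases before to 50 bases after a transcript start on GRCm38.p6. The windows of *Nr3c1* were not searched. The 5 genes had 12 windows, and 1 of them, belonging to *Sgk1*, held the whole palindrome, as did 3 of all 32851 windows (0.00913%). The arm alone, which is part of the palindrome, lay in 19% of all windows. The *Sgk1* window with the palindrome, chr10:21993640-21993939 on the plus strand, is shown with the single windows of *Fkbp5* (chr17:28486100-28486399, minus strand), *Ddit4* (chr10:59951721-59952020, minus strand) and *Klf9* (chr19:23140976-23141275, plus strand), because these 4 genes shared the expression pattern described for the groups. Capitals mark the palindrome and its arms.
Sgk1: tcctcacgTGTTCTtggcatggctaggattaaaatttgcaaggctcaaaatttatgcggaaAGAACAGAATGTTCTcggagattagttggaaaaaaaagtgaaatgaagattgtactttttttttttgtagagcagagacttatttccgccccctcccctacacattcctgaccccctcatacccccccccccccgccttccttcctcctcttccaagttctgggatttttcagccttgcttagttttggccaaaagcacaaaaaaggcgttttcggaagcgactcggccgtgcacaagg
Fkbp5: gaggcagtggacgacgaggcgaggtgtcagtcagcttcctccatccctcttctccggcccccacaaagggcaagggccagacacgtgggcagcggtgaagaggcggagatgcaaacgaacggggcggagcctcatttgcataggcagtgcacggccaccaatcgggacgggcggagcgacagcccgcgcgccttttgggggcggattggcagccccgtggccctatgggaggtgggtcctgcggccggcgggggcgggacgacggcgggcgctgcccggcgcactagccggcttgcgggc
Ddit4: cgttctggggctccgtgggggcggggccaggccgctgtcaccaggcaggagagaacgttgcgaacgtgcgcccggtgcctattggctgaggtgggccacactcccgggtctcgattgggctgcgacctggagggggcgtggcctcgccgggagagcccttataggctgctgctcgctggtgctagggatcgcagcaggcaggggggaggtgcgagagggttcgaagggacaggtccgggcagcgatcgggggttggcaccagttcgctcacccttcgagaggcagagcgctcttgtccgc
Klf9: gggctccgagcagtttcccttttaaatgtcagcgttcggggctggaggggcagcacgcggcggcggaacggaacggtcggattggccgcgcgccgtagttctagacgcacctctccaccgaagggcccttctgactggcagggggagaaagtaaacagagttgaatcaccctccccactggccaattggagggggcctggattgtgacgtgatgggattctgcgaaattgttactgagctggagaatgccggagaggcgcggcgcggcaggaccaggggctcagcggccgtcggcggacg
The palindrome of *Sgk1*, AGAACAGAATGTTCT, occupies chr10:21993701-21993715 and begins 189 bases before the start. *Sgk1* had 6 windows, and those at chr10:21881934-21882233 and chr10:21991973-21992272 also held an arm. The windows of *Fkbp5*, *Ddit4* and *Klf9* held neither the palindrome nor its arm, and 1 of the 3 windows of *Tsc22d3* held an arm. These counts say only which letters lie in the windows, and elements elsewhere were not examined.

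On GRCm38, GENCODE M21 places *Nr3c1* (ENSMUSG00000024431) on chromosome 18 from 39410545 to 39519421 on the minus strand, *Tsc22d3* (ENSMUSG00000031431) on X from 140539528 to 140600659 on the minus strand, and *Fkbp5* (ENSMUSG00000024222) on chromosome 17 from 28399094 to 28517527 on the minus strand. *Sgk1* (ENSMUSG00000019970) lies on chromosome 10 from 21882184 to 21999903 on the plus strand, *Ddit4* (ENSMUSG00000020108) on the same chromosome from 59949669 to 59951834 on the minus strand, and *Klf9* (ENSMUSG00000033863) on chromosome 19 from 23141226 to 23168134 on the plus strand. Reads over all exons of a gene were counted, and no exon of the 6 genes overlapped an exon of another annotated gene.

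The libraries held between 3132963 and 26482366 counted reads, both extremes in the spleen KO group. *Ccl5*, the gene whose enhancer was deleted, fell to 16.34% of its Wt level in lung KO and to 15.79% in spleen KO libraries. The 10 NK cell markers were all detected, and their summed level was between 37370 and 52500 CPM (counts scaled to a common library size). T cell markers summed to between 48.51 and 178.4 CPM. *Cd3e*, *Cd3d*, *Cd3g* and *Trac* had reads in every library, while *Cd4*, *Cd8a*, *Cd8b1* and *Cd5* had none in some. *Cd3e* averaged 32.23 CPM in spleen Wt and 9.327 in spleen KO. Of the 4 T cell markers tested, 1 rose and 1 fell in spleen KO. B cell markers summed to between 5.181 and 53.05 CPM with *Ms4a1* and *Cd22* at 0 in both lung Wt libraries. Myeloid markers summed to between 142.8 and 169.8 CPM, mostly from *Itgax*, with *S100a8*, *S100a9* and *Adgre1* at 0 in all 8 libraries. *Lyz2* and *Csf1r* had reads in every library. *Lyz2* averaged 13.99 CPM (lung Wt), 24.35 (lung KO), 2.693 (spleen Wt) and 2.865 (spleen KO). Of the 3 myeloid markers tested, 1 rose with the deletion in lung, and none passed in spleen. Erythroid and platelet markers reached 52.07 CPM at most, in lung. The groups were compared as bulk samples, in which fewer cells of a type and less RNA per cell cannot be told apart.

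Among the 6 genes, *Tsc22d3* was the most abundant per length of transcript and *Klf9* the least. Group means in CPM per kilobase of exon (RPKM) ran from 91.99 to 145.3 for *Tsc22d3*, from 33.52 to 39.92 for *Nr3c1*, from 22.82 to 50.99 for *Ddit4*, from 6.868 to 20.98 for *Fkbp5*, from 15.27 to 22.89 for *Sgk1* and from 1.726 to 6.602 for *Klf9*. The highest group mean exceeded the lowest by 3.824-fold for *Klf9*, 3.055-fold for *Fkbp5*, 2.234-fold for *Ddit4*, 1.579-fold for *Tsc22d3*, 1.499-fold for *Sgk1* and 1.191-fold for *Nr3c1*. The receptor transcript was thus the steadiest of the 6 across organs and genotypes, and *Klf9* and *Fkbp5* varied most.

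**Figure D1:**
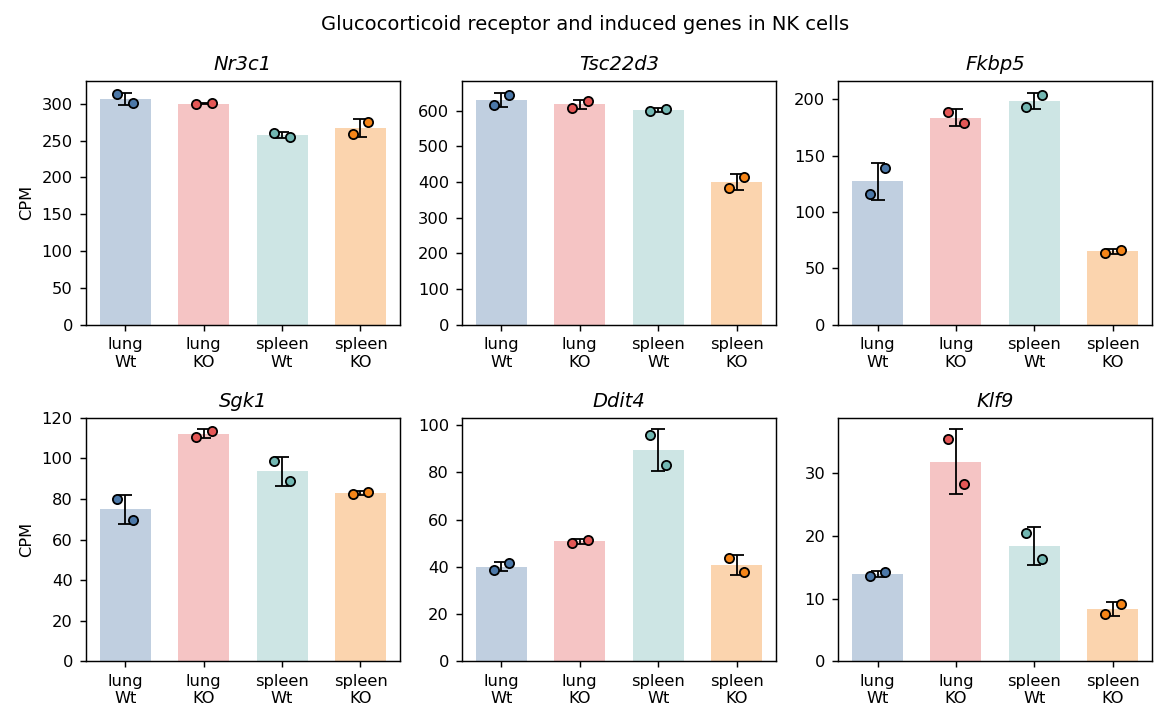
Level of each gene in CPM (vertical axis from 0) in the 4 groups, with 1 point per library, bars at the group mean and error bars of 1 SD (n = 2). *Nr3c1* stays between 254.8 and 312.7 CPM, while *Fkbp5* runs from 63.33 to 203.8 CPM, with spleen KO lowest.

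The first comparison was between KO and Wt NK cells of the lung, where 4 of the 6 genes rose and none fell (55.6% of all tested genes were called in either direction, 29.2% as higher). *Klf9*, *Fkbp5*, *Sgk1* and *Ddit4* rose, and the receptor and *Tsc22d3* did not pass the test. Across the 6 genes the median log2 fold change was 0.46, and across all genes tested it was 0.02, with quartiles at -0.32 and 0.42. At least 2-fold change was reached by 1 of the 6 genes, and by 13.6% of all genes.

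In the spleen, the same deletion went with lower levels. The direction was lower for all 4 genes that were called, *Fkbp5*, *Ddit4*, *Klf9* and *Tsc22d3*, and none was called higher (57.1% of all tested genes were called in either direction, 28.9% as lower). The median log2 fold change of the 6 genes was -0.78, against 0 for all genes, whose quartiles were -0.36 and 0.31. A change of at least 2-fold was reached by 2 of the 6 genes and by 10.6% of all genes.

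Between the organs the KO effect differed for 5 of the 6 genes, each with the higher value in lung (61.6% of all tested genes were called for this difference, 32.5% with the higher value in lung). A difference of at least 2-fold was found for 3 of the 6 genes and for 24.8% of all genes. *Fkbp5*, *Ddit4* and *Klf9* were called in both organs, each higher in lung KO and lower in spleen KO. Opposite directions were common among all genes: of the 4367 genes called in both organs (34.7% of those tested), 77.9% moved in opposite directions, and 14.2% of all tested genes were higher in lung KO and lower in spleen KO. Whether the count of 3 is particular to glucocorticoid targets was not tested. Groups whose libraries do not overlap were also the rule, at 76% of all tested genes between KO and Wt in lung, 73.8% in spleen, 75.6% between the organs in Wt and 79.4% in KO.

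**Figure D2:**
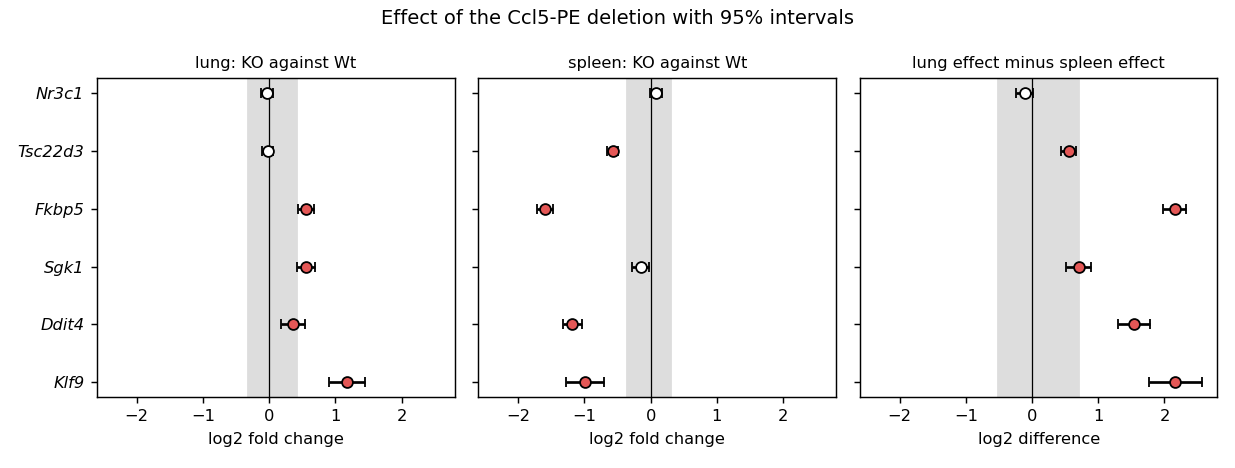
Log2 fold change of KO against Wt in lung (left) and spleen (middle), and the lung effect minus the spleen effect (right), with 95% intervals. Filled points passed an adjusted p of 0.05, open points did not, and the grey band spans the middle of all tested genes from quartile to quartile. *Fkbp5* moves from 0.56 in lung to -1.60 in spleen.

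The receptor *Nr3c1* was read at 312.7 and 300.8 CPM (lung Wt), 299.7 and 300.7 (lung KO), 260.3 and 254.8 (spleen Wt) and 258.9 and 275.8 (spleen KO). Lung libraries were all above spleen libraries, the 2 spleen groups overlapped, and the lung groups were separated by less than their own spread. KO and Wt differed by -0.04 on the log2 scale in lung (95% interval -0.125 to 0.0533, edgeR adjusted p = 0.52) and by 0.08 in spleen (-0.012 to 0.165, adjusted p = 0.15). A change beyond these intervals was not seen at this depth, and the difference between the organs' effects was -0.11 (SE 0.0642, edgeR adjusted p = 0.13). *Nr3c1* was higher in lung than in spleen by 0.26 in Wt (SE 0.0466, edgeR adjusted p = 1e-05) and by 0.15 in KO cells (SE 0.0442, adjusted p = 0.0037). The Wt difference did not pass the test once the trend with gene GC content was removed (0.14, edgeR adjusted p = 0.15).

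*Fkbp5* encodes FKBP51, a co-chaperone in the receptor complex that lowers its affinity for hormone and is itself induced by the receptor, a short negative feedback. Its level was 115.9 and 139.1 CPM (lung Wt), 188.9 and 178.8 (lung KO), 193.6 and 203.8 (spleen Wt) and 63.33 and 66.72 (spleen KO). No 2 groups overlapped, and the order from low to high was spleen KO, lung Wt, lung KO and spleen Wt. *Fkbp5* rose by 0.56 on the log2 scale in lung KO (SE 0.0631, edgeR adjusted p = 2e-09), to 144.2% of Wt. In spleen KO it fell by 1.60 (SE 0.0622, edgeR adjusted p = 6e-22), to 32.73% of Wt, a 3.021-fold lower level. By p-value this was the gene ranked 4 of 12595 in the spleen comparison, and 4.82% of genes changed by a larger factor. The lung effect exceeded the spleen effect by 2.15 (SE 0.0884, edgeR adjusted p = 7.3e-22).

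*Tsc22d3* encodes GILZ, a leucine zipper protein that carries part of the anti-inflammatory action of glucocorticoids. Its libraries read 616.1 and 645.0 CPM (lung Wt), 608.9 and 627.5 (lung KO), 599.3 and 606.0 (spleen Wt) and 383.6 and 415.1 (spleen KO). Spleen KO stood alone below the other 6 libraries, which ranged from 599.3 to 645.0 CPM. It fell by 0.57 on the log2 scale in spleen KO (SE 0.0413, edgeR adjusted p = 2.6e-14), to 66.27% of Wt. In lung the difference was -0.02 (95% interval -0.103 to 0.0566, edgeR adjusted p = 0.65), and the 2 effects differed by 0.55 (SE 0.0579, adjusted p = 1.7e-10). *Tsc22d3* was therefore the 1 target called in spleen and not in lung, and the test of that difference passed.

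*Sgk1* encodes a serine/threonine kinase of the AKT family that regulates ion channels and FOXO factors. It was read at 80.06 and 69.68 CPM (lung Wt), 110.7 and 113.7 (lung KO), 98.67 and 88.68 (spleen Wt) and 82.26 and 83.65 (spleen KO). The groups did not overlap and followed the order lung Wt, spleen KO, spleen Wt, lung KO, with narrow gaps between the first 3. *Sgk1* rose by 0.56 on the log2 scale in lung KO (SE 0.0705, edgeR adjusted p = 2e-08), to 149.9% of Wt. In spleen KO it stood at 88.56% of Wt, a log2 difference of -0.15 (95% interval -0.274 to -0.019, edgeR adjusted p = 0.053). This value lay at the threshold, and 13 of 18 other settings kept it on the same side. Settings where it passed included library totals in place of TMM scaling (-0.21, edgeR adjusted p = 0.0049) and the spleen libraries fitted alone (-0.15, adjusted p = 0.05). The value also passed without spleen Wt replicate 2 (-0.24) and without lung Wt replicate 2 (-0.15). The lung effect exceeded the spleen effect by 0.71 (SE 0.0961, edgeR adjusted p = 5.9e-08).

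*Ddit4* encodes REDD1, an inhibitor of the growth kinase complex mTORC1 that is also raised by hypoxia and energy stress. Its level was 38.66 and 41.45 CPM (lung Wt), 50.15 and 51.43 (lung KO), 95.67 and 83.31 (spleen Wt) and 43.74 and 37.77 (spleen KO). Lung Wt and spleen KO overlapped, lung KO lay above both, and spleen Wt was highest. *Ddit4* fell by 1.18 on the log2 scale in spleen KO (SE 0.0757, edgeR adjusted p = 1.2e-15), to 45.54% of Wt. In lung KO it rose by 0.36 (SE 0.096, edgeR adjusted p = 0.0017), to 126.8% of Wt. The lung call was not kept without lung Wt replicate 1 (0.29, edgeR adjusted p = 0.078) or with the GC trend removed (0.01, adjusted p = 0.96), and *Ddit4* has the highest exonic GC content of the 6 genes, 57.9%. The lung effect exceeded the spleen effect by 1.54 (SE 0.122, edgeR adjusted p = 1.2e-13), or by 0.83 with the GC trend removed.

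*Klf9* encodes a Krüppel-like transcription factor that is a direct target of the receptor in many tissues. It was read at 13.55 and 14.25 CPM (lung Wt), 35.41 and 28.16 (lung KO), 20.48 and 16.24 (spleen Wt) and 7.508 and 9.116 (spleen KO). These levels rest on 23 to 238 reads per library, the fewest of the 6 genes. The groups did not overlap, in the order spleen KO, lung Wt, spleen Wt, lung KO. *Klf9* rose by 1.18 on the log2 scale in lung KO (SE 0.141, edgeR adjusted p = 7.1e-09), to 228.7% of Wt. In spleen KO it fell by 0.99 (SE 0.147, edgeR adjusted p = 5.3e-07), to 45.27% of Wt, and the effects differed by 2.16 (SE 0.205, adjusted p = 1.4e-11).

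For *Fkbp5*, *Sgk1*, *Ddit4* and *Klf9*, the 4 lung Wt and spleen KO libraries lay below the 4 lung KO and spleen Wt libraries without exception. The same arrangement held for 14.1% of all tested genes, and its mirror image for 12%. *Nr3c1* and *Tsc22d3* did not show it. Over the 8 libraries, Pearson's r of log2 CPM was 0.89 between *Tsc22d3* and *Fkbp5*, 0.86 between *Fkbp5* and *Klf9*, 0.77 between *Sgk1* and *Klf9* and 0.68 between *Fkbp5* and *Ddit4*. *Nr3c1* followed none of the 5 closely, with r of 0.49 with *Tsc22d3*, 0.38 with *Klf9*, 0.13 with *Fkbp5*, 0.03 with *Sgk1* and -0.61 with *Ddit4*. The 8 points form 4 groups of 2, so these correlations describe the groups' order and no more.

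The lung was also compared with the spleen within each genotype, on the same libraries as the KO comparisons. In Wt cells 3 of the 5 targets were lower in lung, and the receptor was higher (57% of all tested genes were called, 29.3% as lower in lung). *Ddit4* was lower in lung by 1.15 on the log2 scale (SE 0.0864, edgeR adjusted p = 4.9e-14), *Fkbp5* by 0.68 (SE 0.0624, adjusted p = 8.8e-12) and *Sgk1* by 0.27 (SE 0.073, adjusted p = 0.0016). *Tsc22d3* differed by 0.06 (95% interval -0.0197 to 0.141, edgeR adjusted p = 0.21), and *Klf9* by -0.36 (-0.669 to -0.0457, adjusted p = 0.053). This *Klf9* value stayed on its side of the threshold in 10 of 18 other settings. Settings where it passed included library totals (-0.46, edgeR adjusted p = 0.012). It also passed without lung KO replicate 1 (-0.36), lung KO replicate 2 (-0.36), spleen Wt replicate 2 (-0.57), spleen KO replicate 1 (-0.36) or spleen KO replicate 2 (-0.34). In KO cells all 6 genes were higher in lung (65.6% of all tested genes were called, 33.9% as higher in lung). The log2 differences there were 1.81 for *Klf9* (SE 0.13, edgeR adjusted p = 6.6e-15), 1.47 for *Fkbp5* (SE 0.063, adjusted p = 1e-21), 0.61 for *Tsc22d3* (SE 0.0411, adjusted p = 9.6e-16), 0.43 for *Sgk1* (SE 0.0626, adjusted p = 1.8e-07) and 0.40 for *Ddit4* (SE 0.0846, adjusted p = 1e-04). For *Ddit4* this value was 0.23 without spleen KO replicate 2 (edgeR adjusted p = 0.19) and -0.12 with the GC trend removed (adjusted p = 0.36), so its direction depended on that correction.

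Transcripts of proteins that hold, modify or assist the receptor moved in both directions. For this list and those that follow, the shares of all tested genes called were 55.6% in lung KO and 57.1% in spleen KO. Of 20 tested genes of chaperones, steroid-converting enzymes and cofactors, 6 rose, 7 fell and 7 did not pass in lung KO. In spleen KO, 9 rose, 5 fell and 6 did not pass. The split depended on the scaling: with the GC trend removed it was 4 higher and 7 lower in lung and 10 higher and 2 lower in spleen, and with library totals 7 and 5 in lung and 7 and 7 in spleen. *Hsd11b1*, the enzyme that regenerates active glucocorticoid from its inert form inside cells, was abundant, at 2768 and 2728 CPM (lung Wt), 1759 and 1768 (lung KO), 1583 and 1530 (spleen Wt) and 2144 and 2129 (spleen KO). No groups of *Hsd11b1* overlapped, and lung Wt was highest and spleen Wt lowest. *Hsd11b1* decreased by 0.64 in lung KO on the log2 scale (SE 0.034, edgeR adjusted p = 4.3e-18) and rose by 0.46 in spleen KO (SE 0.0343, adjusted p = 8.6e-14), the reverse of the directions of *Fkbp5*. *Hsd11b2*, which inactivates the hormone, had no read in any library.

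*Fkbp4*, the co-chaperone that competes with FKBP51 for HSP90, rose by 0.71 in lung KO (SE 0.0578, edgeR adjusted p = 6.1e-13) and fell by 0.48 in spleen KO (SE 0.056, adjusted p = 3.8e-09). Its libraries were at 124.3 and 140.9 CPM (lung Wt), 213.1 and 213.3 (lung KO), 173.9 and 161.2 (spleen Wt) and 123.1 and 118.1 (spleen KO). With the GC trend removed, its values shrank to 0.42 in lung (edgeR adjusted p = 1.6e-05) and -0.21 in spleen (adjusted p = 0.042), in the same directions as those of *Fkbp5*. The chaperone *Hsp90ab1* fell by 0.36 in lung KO (SE 0.0362, edgeR adjusted p = 9.3e-11) and rose by 0.28 in spleen KO (SE 0.0368, adjusted p = 3.1e-08), as did the co-chaperone *Ptges3* (p23), which fell by 0.35 (SE 0.0538, adjusted p = 9.6e-07) and rose by 0.41 (SE 0.0516, adjusted p = 2.1e-08). The mineralocorticoid receptor *Nr3c2*, which also binds glucocorticoids, rose in lung KO (edgeR adjusted p = 9.5e-06) from 4 and 3 reads in the lung Wt libraries (0.4973 and 0.7771 CPM) to 17 and 28 (3.48 and 3.809 CPM), too few reads for a firm fold.

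Other genes that glucocorticoids raise were divided. Of 15 tested, 6 rose, 4 fell and 5 did not pass in lung KO, with a median log2 fold change of 0.19. In spleen KO, 3 rose, 8 fell and 4 did not pass, with a median of -0.21. With the GC trend removed, the spleen count became 4 higher and 5 lower, and with library totals the lung count became 8 higher and 4 lower. *Dusp1*, a phosphatase that switches off MAP kinases, read 283.1 and 306.5 CPM (lung Wt), 594 and 596.3 (lung KO), 26.73 and 21.73 (spleen Wt) and 4.244 and 5.477 (spleen KO). A short exonic stretch of *Dusp1* overlaps *Ergic1* on the other strand in the annotation. All lung libraries of *Dusp1* were above all spleen libraries, and the groups did not overlap. It rose by 1.02 in lung KO (SE 0.0455, edgeR adjusted p = 2.1e-20) and fell by 2.13 in spleen KO (SE 0.143, adjusted p = 4.1e-15).

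*Per1*, a clock gene with a receptor element, rose by 1.34 in lung KO (SE 0.325, edgeR adjusted p = 0.00062). It fell by 1.20 in spleen KO (SE 0.439, edgeR adjusted p = 0.019), a call lost when the GC trend was removed (adjusted p = 0.14). *Per1* had 15 and 9 reads (lung Wt), 23 and 40 (lung KO), 9 and 12 (spleen Wt) and 3 and 18 (spleen KO), too few for a firm fold. *Nfkbia*, the inhibitor of NF-κB, rose by 0.56 in lung KO (SE 0.0502, edgeR adjusted p = 6e-12) and fell by 0.21 in spleen KO (SE 0.0475, adjusted p = 0.00033). With the GC trend removed, the *Nfkbia* values were 0.37 in lung (edgeR adjusted p = 0.00014) and -0.04 in spleen (adjusted p = 0.76), where the call was lost. *Il7r*, the interleukin-7 receptor chain, fell in both organs, by 1.38 in lung KO (SE 0.11, edgeR adjusted p = 3.3e-13) and by 0.39 in spleen KO (SE 0.0629, adjusted p = 2.4e-06). *Irs2*, an insulin receptor substrate, rose in spleen KO (edgeR adjusted p = 5.1e-10) from 1 and 4 reads in the spleen Wt libraries (0.2498 and 0.4674 CPM) to 16 and 151 (5.223 and 5.784 CPM). Of the 15 genes, 7 were called in both organs, against 34.7% of all tested genes. Of these 7, 5 were higher in lung KO and lower in spleen KO, as were 14.2% of all tested genes.

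**Figure D3:**
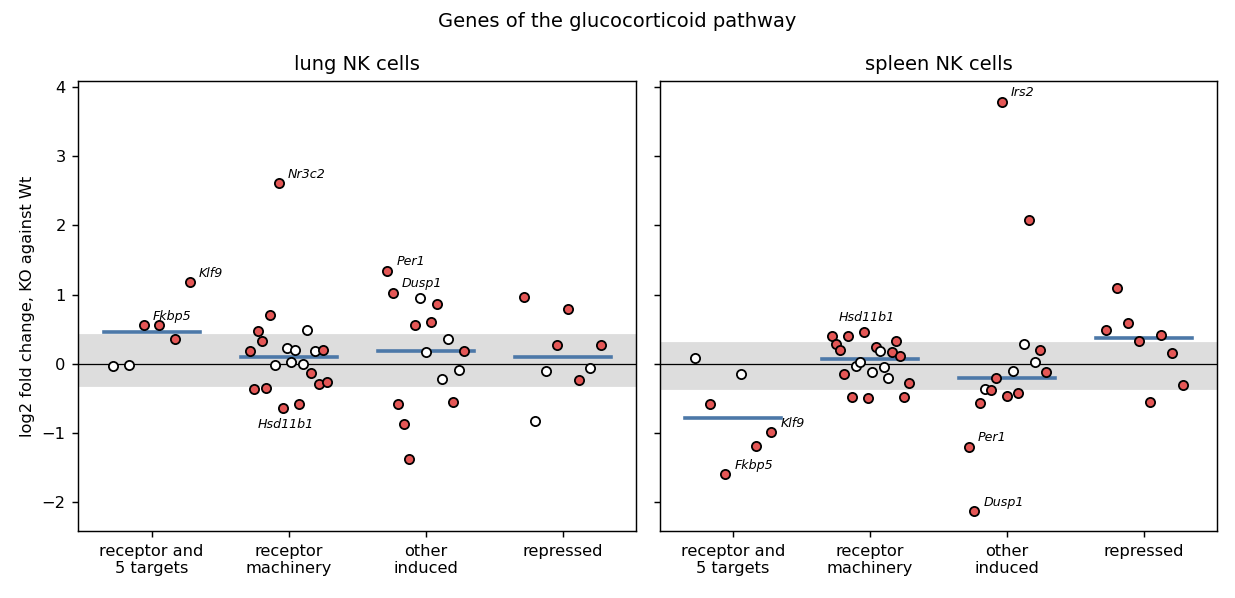
Log2 fold change of KO against Wt (vertical axis) in lung and spleen for the receptor with its 5 targets, the receptor machinery, other induced genes and genes that glucocorticoids lower, with 1 point per tested gene. Filled points passed an adjusted p of 0.05, blue lines are list medians and the grey band spans the quartiles of all genes. The receptor with its 5 targets has its median at 0.46 in lung and at -0.78 in spleen.

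Cytokines and inflammatory genes that glucocorticoids lower were measured alongside. Of 8 tested, 4 rose, 1 fell and 3 did not pass in lung KO, and 6 rose and 2 fell in spleen KO. With library totals or the GC trend removed, 4 rose and 0 fell in lung, and 5 rose and 2 fell in spleen. *Ifng*, the main cytokine of NK cells, rose in both organs, by 0.97 in lung KO (SE 0.0588, edgeR adjusted p = 2.3e-16) and by 0.48 in spleen KO (SE 0.0601, adjusted p = 1.3e-08). The chemokine gene *Ccl3* rose by 0.59 in spleen KO (SE 0.0554, edgeR adjusted p = 2.3e-11), and *Icam1*, an adhesion molecule, rose by 0.79 in lung KO (SE 0.0693, adjusted p = 3.5e-12) and fell by 0.56 in spleen KO (SE 0.0672, adjusted p = 7.3e-09). The *Icam1* values were 0.51 and -0.29 with the GC trend removed. Members of this list thus moved both with and against *Fkbp5* and *Klf9*.

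Around *Ddit4*, 11 genes of the mTORC1 pathway and of the hypoxia and ATF4 responses were tested, of which 5 rose and 3 fell in lung KO and 3 rose and 2 fell in spleen KO. With the GC trend removed these counts were 3 and 3 in lung and 5 and 2 in spleen, and with library totals 6 and 2 in lung. *Hif1a*, the hypoxia-inducible factor, rose by 1.10 in lung KO (SE 0.0853, edgeR adjusted p = 1.8e-13) and fell by 0.49 in spleen KO (SE 0.0726, adjusted p = 4.4e-07). *Rheb*, the small GTPase that activates mTORC1, fell by 0.31 in lung KO (SE 0.0427, edgeR adjusted p = 1.1e-07) and rose by 0.39 in spleen KO (SE 0.043, adjusted p = 1e-09). Around *Sgk1*, 10 related kinases, substrates and FOXO genes were tested, of which 5 rose and none fell in lung KO, and 5 rose and 3 fell in spleen KO. Removing the GC trend gave 4 and 1 in lung and 4 and 2 in spleen, and with library totals 4 and 4 in spleen. *Klf2*, a FOXO target that governs lymphocyte trafficking and belongs to the family of *Klf9*, rose by 1.21 in lung KO (SE 0.0452, edgeR adjusted p = 1.2e-22) and fell by 1.37 in spleen KO (SE 0.045, adjusted p = 2.7e-24). *Akt2* moved likewise, by 0.60 in lung KO (SE 0.112, edgeR adjusted p = 2.2e-05) and -0.81 in spleen KO (SE 0.106, adjusted p = 3.7e-08). With the GC trend removed, the values were 0.78 in lung and -0.96 in spleen for *Klf2*, and 0.32 in lung (edgeR adjusted p = 0.045) and -0.52 in spleen for *Akt2*.

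Among 12 tested relatives of the 6 genes, 5 rose and 4 fell in lung KO, and 4 rose and 5 fell in spleen KO. With library totals, 5 rose and 2 fell in lung and 2 rose and 7 fell in spleen. *Tsc22d4*, a relative of *Tsc22d3*, rose by 0.78 in lung KO (SE 0.0874, edgeR adjusted p = 1.5e-09) and fell by 1.004 in spleen KO (SE 0.079, adjusted p = 2.9e-13). The *Tsc22d4* values were 0.45 in lung and -0.67 in spleen with the GC trend removed. *Klf10* rose by 0.72 in lung KO (SE 0.0573, edgeR adjusted p = 3.3e-13) and fell by 0.39 in spleen KO (SE 0.0514, adjusted p = 4.7e-08). The 50-base reads used for counting could in principle be shared between close relatives, and no read-level files were used here.

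Several other measures moved with these results. Immediate early genes, such as *Fos*, *Junb* and *Nr4a1*, respond within minutes to handling and other stimuli. The paper places *Fos* and *Junb* among genes of NK cell proliferation and activation. The 10 genes of this list had sums of 491.2 and 525.6 CPM (lung Wt) and 1091 and 1102 (lung KO). In spleen the sums were 481.4 and 514.1 CPM (Wt) and 241.6 and 253.6 (KO), with *Fos* at 82.09% of Wt. Of the 9 that were tested, 6 rose in lung KO and 8 fell in spleen KO, the directions of *Fkbp5*, *Ddit4* and *Klf9*. Among all tested genes, 29.2% rose in lung KO and 28.9% fell in spleen KO. The NK markers were divided: 3 of the 10 rose and 6 fell in lung KO, and 7 rose and 3 fell in spleen KO. *Tbx21*, *Il2rb* and *Prf1* moved as *Fkbp5* did, to 219%, 229.9% and 166.6% of Wt in lung and 44.2%, 65.57% and 71.54% in spleen. These 3 were chosen after their values were seen. The summed level of all NK markers, most of it from *Gzma* and *Nkg7*, went the other way, with sums of 50970 to 52500 CPM in lung Wt, 40900 to 41290 in lung KO, 37370 to 37960 in spleen Wt and 48220 to 50520 in spleen KO. Epithelial, endothelial and fibroblast markers, all 8 of them detected, had sums of 310.6 and 315.7 CPM (lung Wt), 400.6 and 436.9 (lung KO), 65.7 and 75.71 (spleen Wt) and 67.25 and 68.64 (spleen KO), with *Sftpc*, *Scgb1a1*, *Cdh5*, *Col1a1* and *Col3a1* at 0 in spleen. The rise of this sum in lung KO came mainly from *Sftpc*, which went from 153.9 to 266.6 CPM on average, while *Scgb1a1* stood at 72.84% of Wt. The spleen sums came almost wholly from *Pecam1*, which averaged 69.92 CPM in spleen Wt and 67.62 in spleen KO. Of the 5 such markers tested, 2 rose and 1 fell in lung KO. The KO effect of all genes rose with exonic GC content in lung (Spearman's rho 0.289 across 12502 genes) and fell with it in spleen (-0.272), genes not being independent replicates. Their part in the results was not tested, apart from the fits with the GC trend removed.

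Genes whose levels ran most like each of the 6 were named by Pearson's r of log2 CPM over the 8 libraries, among 8515 genes of sufficient level. For *Fkbp5* they were *Rad23b* (0.993), *Kdm1b* (0.993) and *Stat2* (0.990), for *Tsc22d3* *Vps11* (0.995) and *Ide* (0.993), and for *Klf9* *Eif4g1* (0.989), *Ogfod2* (0.985) and *Daxx* (0.985). For *Sgk1* they were *Ccny* (0.986), *Hp1bp3* (0.983) and *Ipo13* (0.979), for *Ddit4* *Gm10143* (0.990), *Chmp1a* (0.984) and *Cep85* (0.982), and for *Nr3c1* *Snx10* (0.981), *Gm37248* (0.980) and *Plekha3* (0.976). As many as 142 genes had r above 0.95 with *Fkbp5* and 22 with *Ddit4*, so the leading names are a few of many. None of the 5 targets was among the genes most like another of them.

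**Figure D4:**
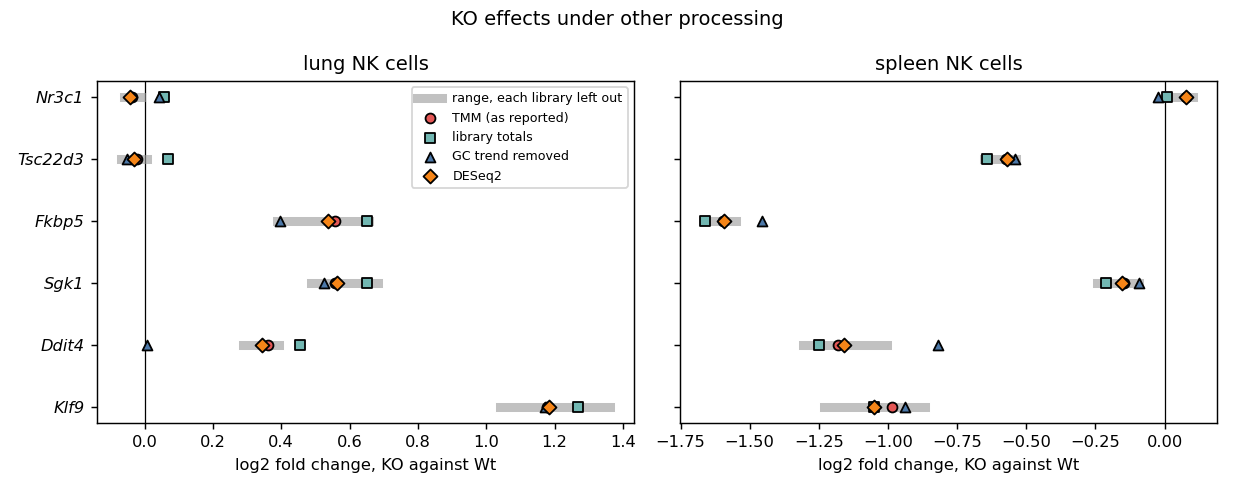
Log2 fold change of KO against Wt (horizontal axis) for the 6 genes in lung and spleen as reported and with other processing, with grey bars for the range when each library is left out. *Ddit4* in lung moves from 0.36 to 0.01 with the GC trend removed, and *Fkbp5* in spleen stays between -1.66 and -1.46.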

How the data were processed

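RNA was sequenced from 8 libraries of sorted NK cells with 50-base reads. The authors aligned reads to GRCm38 (mm10) with HISAT2 2.1.0 and deposited 1 file per library of counts per gene from HTSeq (0.11.1 in the submitters' processing notes). The annotation and the strand setting of the counting are not given in the sources used here. Rows for unassigned reads were left out, and 52.7% to 55.1% of uniquely aligned reads lay in no feature. Groups and replicate numbers came from the titles.

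Counts were filtered with edgeR 4.0.16 (filterByExpr), scaled by TMM and fitted over all 8 libraries with the quasi-likelihood test, 1 model with 4 groups and no block, and p-values were adjusted by Benjamini-Hochberg over 12595 genes at a threshold of 0.05. Intervals are 95%. CPM use TMM-scaled library sizes, and RPKM also the exonic length of GENCODE M21. With 2 libraries a group, an exact permutation test cannot go below p = 0.333, so single genes rest on the fit across all genes. The limit allowed by a count of 0, 3 reads, is 0.1149 to 0.9793 CPM, for counting error only. The common biological coefficient of variation was 2.5%, and paired libraries of a group differed by more than counting noise (chi-square per degree of freedom 1.20 to 1.42). Counts were also simulated with the common variation of these libraries and 200 genes changed in lung KO only, among 12054 tested. Of the 200, 78.5% were recovered, and 2.48% of the calls were false. This checked the fitting steps alone and gives no error rate for the real calls, which covered 55.6% of genes in lung.

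The 6 genes and the lists around them were chosen with earlier results of these data known. Genes of the lists are named if among the 4 with the smallest p in a comparison whose libraries do not overlap, or if highest or lowest in log2 fold change. *Fos*, *Junb*, *Nr4a1* and the marker genes were named after their values were seen. A gene that the rule on likeness would name is not reported here. Of 48321 symbols, 46394 matched the annotation by name and 579 by synonym. Alternatives were DESeq2 1.42.0, other scalings and filters, a GC offset, a replicate block, leaving out each library, and an assumed coefficient of variation (0.2). Replicate numbers have no stated meaning and each contrast has 2 pairs, so they were not taken to pair the libraries.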

Additional observations from a re-analysis of the deposited data

Results flagged for a closer look

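By a test of the difference itself, 5 of the 6 genes responded differently to the deletion in lung than in spleen. The lung effect minus the spleen effect, on the log2 scale with edgeR's adjusted p, was 2.16 for *Klf9* (1.4e-11), 2.15 for *Fkbp5* (7.3e-22), 1.54 for *Ddit4* (1.2e-13), 0.71 for *Sgk1* (5.9e-08) and 0.55 for *Tsc22d3* (1.7e-10). Such a difference passed the test for 61.6% of all tested genes.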

How the results depend on the processing

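Among the refitted log2 fold changes of the 6 genes in the 5 comparisons, 500 kept their side of the threshold, 13 passed it newly and 19 lost it. A further 2 reversed, which was counted only where the reported or the refitted value passed. The 500 include changes of sign in values that passed in neither fit, such as *Nr3c1* in lung KO against Wt (-0.04 as reported, 0.06 with library totals). The 2 that reversed were the lung against spleen difference of *Ddit4* in KO cells, with a GC offset (-0.12) and with a GC offset and a replicate block (-0.12). When a coefficient of variation of 0.2 was assumed, the genes called among the 6 fell to 1 in lung KO against Wt, 3 for the difference of the effects, 1 for lung against spleen in Wt and 2 in KO, and the cause lies in the larger assumed spread. In that setting *Klf9* in lung, and *Fkbp5*, *Ddit4* and *Klf9* in spleen, kept their calls. Leaving out 1 library at a time gave 3 to 4 called genes in lung KO, 4 to 5 in spleen KO, 5 for the difference, 4 to 5 for the organs in Wt and 5 to 6 in KO.

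Among all genes, 7000 were called in lung and 7195 in spleen. DESeq2 called 4419 in spleen, the assumed variation gave 1557 and 1144, and leaving out spleen KO replicate 2 gave 4448 in spleen. Library totals shifted the median of all genes by 0.16 for the difference of effects and by -0.11 for the organs in Wt, and a GC offset shifted it by -0.14 for the difference and by -0.13 for the organs in KO. Higher genes made up 52.5% of lung calls, or 63.3% with library totals, and 49.3% of spleen calls, or 59.3% with a GC offset. For the difference the share went from 52.9% to 63.5% with library totals, for the organs in Wt from 48.6% to 36.9%, and for the organs in KO from 51.7% to 39.3% with a GC offset.

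With the replicate number as a block, 4 genes were called in lung and 4 in spleen, 5 for the difference, 5 for the organs in Wt and 6 in KO, and *Klf9* between the organs in Wt was the 1 call that changed (-0.42, edgeR adjusted p = 0.021). Deviations of same-numbered libraries correlated at -0.0139 between lung Wt and KO and at 0.169 between spleen Wt and KO, over 5103 genes.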
